A study of Mus musculus with 8 samples.

Results

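The 7 genes described here encode secreted or membrane-bound cytokines of T cells: Ifng, Tnf, Lta, Ltb, Csf1, Areg and Il16. They were chosen by symbol, with earlier results of these data known. All 7 were found among the 31053 genes counted in each library of the first experiment and the 32285 genes of the second. They were followed across CD8 T barcodes, meaning droplet barcodes with at least 1 unique molecular identifier (UMI, a tag that marks 1 captured RNA molecule) of Cd8a or Cd8b1 and at least 1 of Cd3d, Cd3e or Cd3g. These numbered 3975 of 5589 deposited barcodes with buffer and 5622 of 6361 with rhIL-7-hyFc at 10 mg/kg. In the second experiment they numbered 10888 of 12560 with rhIL-7-hyFc at 1.25 mg/kg and 10933 of 11501 with rhIL-7-hyFc at 1.25 mg/kg plus TCE.

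All mice were wild-type C57BL/6 animals carrying palpable tumours of MC38, a mouse colon carcinoma line, and the CD8 T cells of the tumours were profiled by 10x 5′ single-cell RNA sequencing with paired T cell receptor (TCR) libraries. In experiment 1 a group received buffer and the other rhIL-7-hyFc, a recombinant interleukin-7 fused to a hybrid Fc, subcutaneously at 10 mg/kg. Tumours were taken 7 days later and CD8 T cells enriched by IMag positive selection. In experiment 2 both groups received rhIL-7-hyFc at 1.25 mg/kg, and 1 of them also the TCE, a bispecific antibody with anti-mPD-L1 and anti-CD3ε arms, intravenously from 3 days afterwards. Those tumours were taken 24 hours after the last treatment, and live CD45+TCRb+CD8a+ cells were sorted by flow cytometry. The sources used here do not give the age or number of mice behind each library, and the wording on how often the TCE was given can be read in more than 1 way. A group consists of 1 library for expression and 1 for the TCR. There is thus no replicate check of any difference below and no p-value; 95% intervals cover counting error alone. Dose, timing and cell isolation differed between the experiments, so values are compared within an experiment.

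Interferon-γ, the product of Ifng, is released by CD8 T cells after TCR stimulation and acts through a receptor found on most cells, where it induces antigen presentation and antiviral GTPases. TNF and the lymphotoxins are members of 1 ligand family, act through death-domain and NF-κB-activating receptors, and shape inflammation and lymphoid tissue. Csf1 is the growth factor of macrophages, Areg is a ligand of the epidermal growth factor receptor linked to tissue repair, and Il16 is made as a long precursor that is cleaved before release and can attract CD4-bearing cells.

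By the GENCODE vM21 annotation of GRCm38, Ifng lies at chr10:118441046-118445892 on the plus strand and overlaps the gene model Gm49751 on the same strand. Ltb (chr17:35194439-35196320, plus strand), Tnf (chr17:35199381-35202007, minus strand) and Lta (chr17:35203165-35205351, minus strand) sit side by side within 10913 bases, with 3060 bases between Ltb and Tnf and 1157 bases between Tnf and Lta. Csf1 is at chr3:107741048-107760469 on the minus strand, Areg at chr5:91139599-91148432 on the plus strand, and Il16 at chr7:83642825-83745726 on the minus strand, where it overlaps Stard5, 2310044K18Rik and Phgdh-ps1. The sources used here do not say how reads in such overlaps were counted.

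The 150 bases upstream of the start of 4 members are printed because the comparisons between barcode classes and treatments below turn on these genes. They are RefSeq promoter sequences of build GRCm38.p6, written 5′ to 3′ on the gene's own strand. Capitals mark matches, on either strand, to 5 motifs that were searched: GGAAA (the core bound by NFAT), TGACGTCA (the cyclic AMP response element), TGANTCA (AP-1), GGGANNNNCC (NF-κB; it can overlap GGAAA) and TATAAA (the TATA box). The windows are chr10:118440896-118441045 (Ifng, plus strand), chr17:35202008-35202157 (Tnf, minus strand), chr3:107760470-107760619 (Csf1, minus strand) and chr5:91139449-91139598 (Areg, plus strand).
Ifng: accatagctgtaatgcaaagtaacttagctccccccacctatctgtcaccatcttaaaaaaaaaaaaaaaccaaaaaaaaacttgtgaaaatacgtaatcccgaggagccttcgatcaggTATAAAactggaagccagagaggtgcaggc
Tnf: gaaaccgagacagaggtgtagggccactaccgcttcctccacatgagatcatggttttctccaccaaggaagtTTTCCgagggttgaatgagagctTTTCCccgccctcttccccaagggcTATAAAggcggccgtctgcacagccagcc
Csf1: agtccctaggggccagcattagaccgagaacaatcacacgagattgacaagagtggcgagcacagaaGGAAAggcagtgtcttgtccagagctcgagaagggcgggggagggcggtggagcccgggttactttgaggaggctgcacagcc
Areg: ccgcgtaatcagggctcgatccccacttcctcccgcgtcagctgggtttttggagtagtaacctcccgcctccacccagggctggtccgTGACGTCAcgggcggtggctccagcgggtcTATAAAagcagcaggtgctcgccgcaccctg
In these windows Ifng had a TATA box 30 bases before its start, Tnf had a TATA box at 29 bases and reverse matches to the NFAT core at 77 and 54 bases, and Csf1 had an NFAT core at 83 bases. Areg had a cyclic AMP response element at 61 bases and a TATA box at 31 bases. Of 32851 mouse promoter windows of the same length, 37.6% held GGAAA, 1.36% TGACGTCA, 4.24% TGANTCA, 11.9% GGGANNNNCC and 7.57% TATAAA. A match describes letters in the window and is not a measured binding site.

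In the order buffer, 10 mg/kg, 1.25 mg/kg and TCE, the CD8 T barcodes had a median of 8456, 9726, 7138.5 and 6700 UMIs and 41144471, 61120884, 109627615 and 91111930 UMIs in all. All 9 T cell markers were detected at 5 CPM (UMIs of a gene per 1000000 UMIs of the library) or more in every library. The 13 macrophage and monocyte markers were also present, with 12 to 13 of 13 at 5 CPM or more, none at 0, and a summed level of 2163, 746, 6860 and 1730 CPM. Barcodes with 20 or more UMIs of these markers, called myeloid-rich here, made up 12.0%, 2.99%, 33.5% and 7.56% of the CD8 T barcodes, and without them the summed level was 443, 285, 391 and 233 CPM. Their part in the results was not tested, and values without them are given beside several of the members' results and with the gene lists. Between 31 and 165 barcode sequences were shared by pairs of libraries and none had the same counts.

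Ifng was lower in the treated library of both experiments. It reached 351 CPM (95% interval 346 to 357) with buffer and 104 CPM (102 to 107) at 10 mg/kg, and 137 CPM (135 to 139) at 1.25 mg/kg and 118 CPM (115 to 120) with TCE. To compare shares of barcodes across depths, each barcode was thinned to 3000 UMIs, which left out 692, 187, 575 and 424 shallower barcodes in the order above. At this depth 36.6% (34.9% to 38.3%) of 3283 buffer barcodes held an Ifng UMI against 10.6% (9.77% to 11.4%) of 5435 at 10 mg/kg. The shares in experiment 2 lay within each other's intervals, at 17.7% (17.0% to 18.4%) of 10313 and 17.9% (17.2% to 18.7%) of 10509. Ifng-positive barcodes held a mean of 2.43, 2.41, 2.30 and 1.95 Ifng UMIs in the 4 libraries. Without the barcode highest for Ifng in each library, an alternative chosen after seeing the data, these means were 2.40, 1.90, 2.27 and 1.86, so the 10 mg/kg value rested on 1 barcode. The lower Ifng level at 10 mg/kg thus came with fewer positive barcodes and, without that barcode, a lower count in each. Before thinning the shares were 55.5%, 20.2%, 34.4% and 31.8%. Barcodes with myeloid RNA and no UMI of Cd3d, Cd3e, Cd3g, Cd8a or Cd8b1 were taken as background. Other T cell markers were not required to be absent from them. Their thinned Ifng share was 5.88% of 68, 0 of 114 (allowing up to 3.18%), 1.40% of 712 and 2.27% of 88, below the CD8 T share in every library. Their median depths were 7835, 12791, 5434 and 5796 UMIs.

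Csf1 and Areg had the same order of libraries in experiment 1. Csf1, the macrophage growth factor, measured 51.9 CPM with buffer and 13.3 CPM at 10 mg/kg, and 51.0 CPM at 1.25 mg/kg and 44.1 CPM with TCE. Its thinned share of positive barcodes was 11.6%, 2.39%, 11.8% and 10.6% (25.4%, 7.26%, 26.3% and 20.8% before thinning), against 4.41%, 0, 2.39% and 3.41% in the myeloid barcodes. The myeloid intervals reached up to 12.4%, 3.18%, 3.80% and 9.64%. The CD8 T shares with buffer and at 10 mg/kg thus lay within them. Csf1-positive barcodes held a mean of 1.43, 1.25, 1.36 and 1.35 UMIs. After thinning Csf1 was thus mostly seen as a single molecule per barcode, and the libraries differed in how many barcodes had one. The corresponding means before thinning were 2.12, 2.00, 1.95 and 1.76 UMIs, with up to 23, 37, 18 and 14 UMIs in a barcode. The single molecule is therefore a feature of the thinned depth.

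Areg, the epidermal growth factor receptor ligand, measured 53.5, 9.57, 61.5 and 36.0 CPM. Few barcodes carried it, 3.81%, 0.994%, 5.00% and 2.91% after thinning (6.24%, 2.12%, 8.42% and 4.62% before), but each positive barcode held a mean of 3.74, 2.33, 3.03 and 3.17 UMIs. The 1% of barcodes with most Areg held 72.7%, 89.4%, 49.4% and 69.7% of its UMIs, where the corresponding shares for Ifng were 28.3%, 47.5%, 38.0% and 33.5%. Areg was therefore concentrated in a small set of barcodes with up to 107, 69, 131 and 84 UMIs each. The Areg share in myeloid barcodes was 1.47%, 1.75%, 4.92% and 2.27%. Its intervals were wide, at 0.0372% to 7.92%, 0.213% to 6.19%, 3.45% to 6.77% and 0.276% to 7.97%, and held the CD8 T share in every library. At 10 mg/kg the CD8 T share lay below the myeloid share and at 1.25 mg/kg it was nearly equal. These shares are not read as expression on their own. Myeloid-rich barcodes at 1.25 mg/kg had Areg in 9.07% of cases and the rest in 2.79%.

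Tnf measured 95.4, 75.1, 55.8 and 33.4 CPM and was found in 22.6%, 17.5%, 12.8% and 7.98% of thinned barcodes (44.1%, 41.0%, 30.5% and 17.9% before thinning). Macrophages make Tnf, and the myeloid barcodes held it in 45.6%, 36.8%, 17.3% and 9.09% of cases, above the CD8 T share in all 4 libraries. The Tnf shares are therefore given as measured and are not read as T cell expression. Without the myeloid-rich barcodes Tnf stood at 88.8, 74.3, 38.7 and 29.9 CPM.

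The lymphotoxin genes are neighbours of Tnf on chromosome 17. Lta, the secreted lymphotoxin-α, measured 17.5, 10.8, 10.9 and 7.70 CPM. It was found in 4.33%, 3.02%, 3.10% and 2.22% of thinned barcodes (11.6%, 8.52%, 7.64% and 5.23% before), against 1.47%, 0, 0 and 0 in the myeloid barcodes. The myeloid intervals reached up to 7.92%, 3.18%, 0.517% and 4.11%, so the CD8 T share lay above its interval at 1.25 mg/kg alone. In the other libraries the Lta share is not set apart from background, and Lta ratios that involve them are given as measured. Ltb, which anchors lymphotoxin heterotrimers in the membrane, measured 491, 454, 539.7 and 561 CPM and was found in 66.4%, 67.6%, 72.8% and 70.7% of thinned barcodes (79.9%, 90.9%, 90.4% and 85.6% before). Most CD8 T barcodes thus carried Ltb in every library, against 7.35%, 0.877%, 8.57% and 12.5% of the myeloid barcodes.

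Il16 had the reverse order in both experiments. It measured 42.5 CPM with buffer and 65.2 CPM at 10 mg/kg, and 45.0 CPM at 1.25 mg/kg and 60.7 CPM with TCE. The share of thinned barcodes with Il16 was 13.1%, 18.2%, 14.8% and 18.1% (31.7%, 46.4%, 33.9% and 37.1% before), at 1.10, 1.12, 1.12 and 1.14 UMIs per positive barcode and against 7.35%, 5.26%, 3.23% and 6.82% in myeloid barcodes. On the CPM scale Il16 was the 1 member with a higher level in the treated library of experiment 1.

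**Figure D1:**
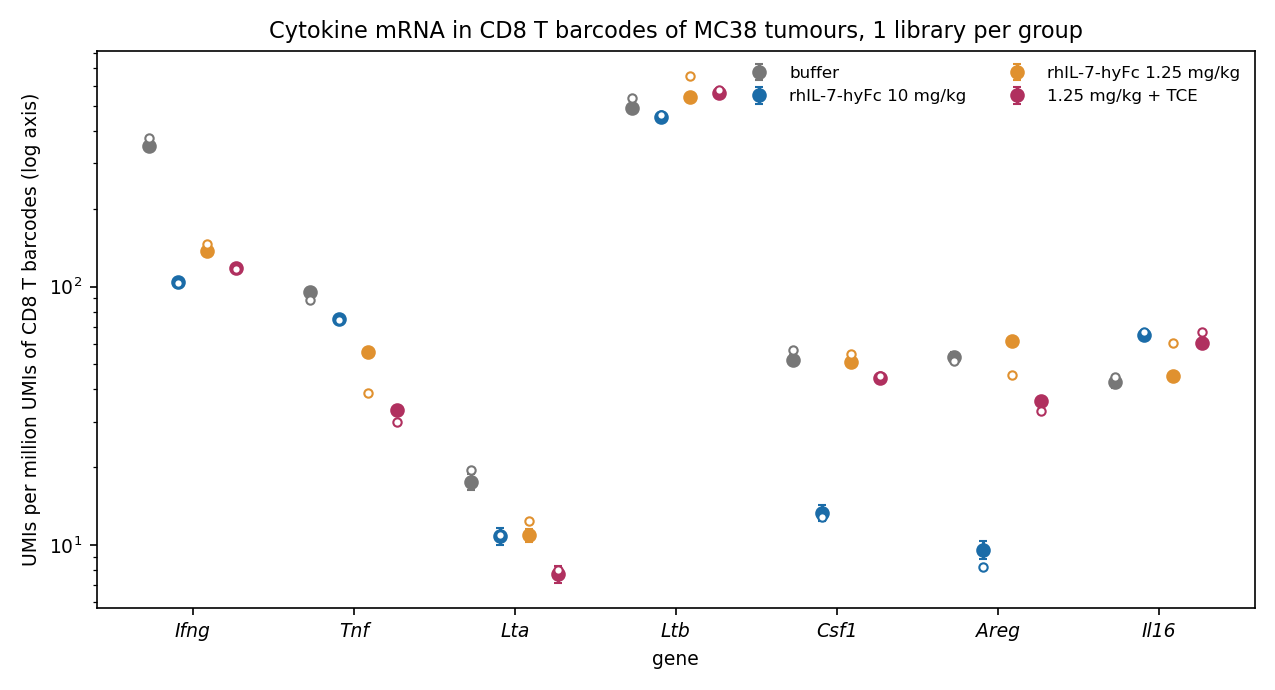
Level of each member in CPM (log axis) over the CD8 T barcodes of each library, with 95% Poisson intervals; filled points use all CD8 T barcodes and open points leave out the myeloid-rich ones. Ifng is at 351 CPM with buffer and 104 CPM at 10 mg/kg, while Ltb stays between 454 and 561 CPM in all 4 libraries.

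Experiment 1 asks what rhIL-7-hyFc at 10 mg/kg did to the cytokine genes relative to buffer. Areg was 5.59-fold lower (95% interval 5.10 to 6.14), Csf1 3.89-fold lower (3.59 to 4.23), Ifng 3.38-fold lower (3.28 to 3.48) and Lta 1.63-fold lower (1.46 to 1.81), while Il16 was 1.53-fold higher (1.45 to 1.62). Tnf was 1.27-fold lower (1.22 to 1.33) and Ltb 1.08-fold lower (1.06 to 1.10), both short of the 1.5-fold used to count a gene as different. By that count 4 of 7 members were lower and 1 was higher, with a median log2 ratio of -0.65. Of 9067 genes with at least 5 CPM in either library, 21.4% were lower and 6.33% higher, with a median of -0.20. Pdcd1, which encodes the inhibitory receptor PD-1, moved from 499 to 137 CPM and the proliferation gene Mki67 from 72.6 to 43.0 CPM in the same comparison. Without myeloid-rich barcodes, an alternative chosen after seeing the data, 4 members were lower and 0 higher (20.2% and 7.01% of 8879 genes), because Il16 was then 1.49-fold higher. With TMM scaling Lta was under the threshold, at a log2 ratio of -0.38, and the sign of Ltb changed, at 0.16.

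Experiment 2 asks what the TCE did on top of rhIL-7-hyFc at 1.25 mg/kg. Areg was 1.71-fold lower (1.64 to 1.78) and Tnf 1.67-fold lower (1.60 to 1.75) with TCE. Lta was 1.41-fold lower (1.28 to 1.55), and Ifng and Csf1 were each 1.16-fold lower (1.13 to 1.19 and 1.11 to 1.21). Il16 was 1.35-fold higher (1.30 to 1.40) and Ltb 1.04-fold higher (1.03 to 1.05). By the 1.5-fold count 2 of 7 members were lower and 0 higher, with a median log2 ratio of -0.22, whereas 9.01% of 9308 genes were lower and 2.54% higher, with a median of 0.08. Pdcd1 was higher with TCE, at 552 against 422 CPM, and Mki67 at 85.0 against 70.9 CPM.

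Myeloid-rich barcodes were 33.5% of the 1.25 mg/kg library and 7.56% of the TCE library, and several values of experiment 2 moved when they were left out. Tnf was then 1.29-fold lower and Areg 1.38-fold lower, both under the threshold, while Lta became the 1 member past it, at 1.56-fold lower (1.38 to 1.75). The shares over all genes were 2.7% lower and 1.62% higher of 8962. Ltb changed direction, from 1.04-fold higher to 1.13-fold lower (1.12 to 1.15), and Ifng and Csf1 were 1.25-fold and 1.22-fold lower. Il16 was then 1.11-fold higher (1.06 to 1.16). Counting each clonotype once turned the sign of Ifng, to a log2 ratio of 0.21, and put Csf1 at 0.01.

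**Figure D2:**
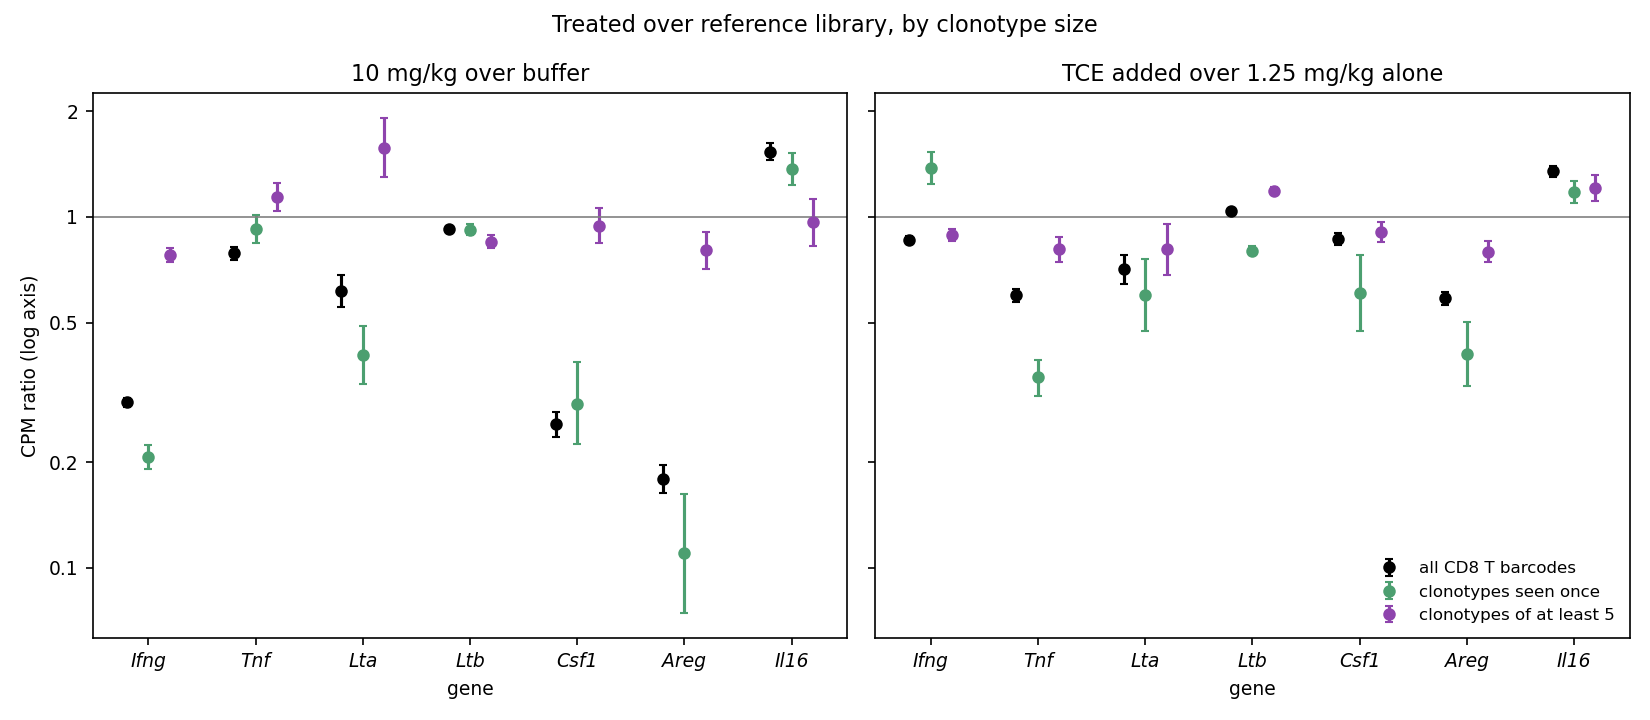
Ratio of the CPM in the treated library to that in its reference (log axis, 1 = equal) for each member in both experiments, over all CD8 T barcodes, clonotypes seen in 1 barcode and clonotypes of at least 5 barcodes, with 95% conditional binomial intervals. In experiment 1 Csf1 is at 0.293 among clonotypes seen in 1 barcode and at 0.945 among those of at least 5.

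Clone size was taken from the TCR beta chain. Barcodes with exactly 1 productive beta chain were 2657, 4822, 6252 and 7212 in the order buffer, 10 mg/kg, 1.25 mg/kg and TCE. Of these, 1533, 395, 2509 and 3167 belonged to clonotypes of at least 5 barcodes and 893, 4231, 3310 and 3516 to clonotypes seen in 1 barcode. Clone size describes how often a TCR was sampled in a library, not the number of such cells in the tumour.

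Ifng, Csf1 and Areg were higher in the large clonotypes of every library. Ifng measured 460 against 154 CPM with buffer (2.99-fold, 2.81 to 3.18), 359 against 31.8 CPM at 10 mg/kg (11.3-fold, 10.5 to 12.1), 239 against 28.0 CPM at 1.25 mg/kg (8.55-fold, 7.84 to 9.33) and 213 against 38.5 CPM with TCE (5.53-fold, 5.16 to 5.93). The thinned share of Ifng-positive barcodes stepped from 17.2% in clonotypes seen in 1 barcode to 40.2% in those of 2 to 4 and 51.6% in those of at least 5 with buffer. The same 3 classes gave 5.98%, 38.0% and 44.2% at 10 mg/kg, 4.88%, 20.3% and 30.0% at 1.25 mg/kg, and 7.52%, 21.5% and 27.8% with TCE. Each library thus showed the larger step between 1 barcode and 2 to 4 barcodes, and the intervals of the middle and the largest class overlapped at 10 mg/kg (31.1% to 45.3% and 39.2% to 49.3%). Before thinning the outer classes were 31.0% and 80.2%, 11.4% and 79.2%, 7.70% and 51.2%, and 13.3% and 45.8%.

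For Csf1 the ratio between these classes was 5.88 with buffer, 18.9 at 10 mg/kg, 12.0 at 1.25 mg/kg and 17.9 with TCE. Its share was 2.89%, 0.916%, 1.93% and 1.2% in clonotypes seen in 1 barcode and 18.2%, 15.4%, 22.8% and 19.6% in the largest class. With buffer, at 1.25 mg/kg and with TCE the share in clonotypes seen in 1 barcode lay below the 4.41%, 2.39% and 3.41% of the myeloid barcodes, and at 10 mg/kg it lay under the 3.18% that 0 of 114 allows, so these ratios are against a class at background. For Areg the ratio was 7.43, 54.2, 6.13 and 12.0, and without myeloid-rich barcodes 6.45, 48.2, 15.1 (12.3 to 18.8) and 13.6. Its share was 1.04%, 0.169%, 0.995% and 0.439% in clonotypes seen in 1 barcode and 4.51%, 6.17%, 6.47% and 4.74% in the large ones. At 10 mg/kg Areg was 1.06 CPM in clonotypes seen in 1 barcode and 57.4 CPM in the large ones. In every library the Areg share of clonotypes seen in 1 barcode was below the measured share of the myeloid barcodes, so it is not read as expression. With buffer and with TCE it lay within the wide myeloid interval, so a share below background is not shown there.

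Il16 had the reverse order, with ratios of 0.734, 0.519, 0.629 and 0.647 and shares of 15.7%, 18.7%, 20.2% and 21.6% in clonotypes seen in 1 barcode against 11.6%, 12.1%, 12.7% and 15.3% in the large ones. The TNF family members differed less. Tnf had ratios of 1.24, 1.53, 1.25 and 2.90, and Ltb of 1.07, 0.993, 1.23 and 1.81. Lta was lower in the large clonotypes with buffer (0.792, 0.656 to 0.958). It was higher in the other 3 libraries (3.09, 1.73 and 2.33). At 10 mg/kg 1 barcode of the large clonotypes held 38 Lta UMIs, and the ratio of 3.09 is not given without it. Without myeloid-rich barcodes the buffer interval of Lta held 1 (0.911, 0.747 to 1.11). Its thinned shares in the largest class were close together at 4.31%, 4.37%, 4.45% and 3.06%. In clonotypes seen in 1 barcode they were 4.86%, 2.72%, 2.31% and 1.49%, within the myeloid intervals except at 1.25 mg/kg. Myeloid-rich barcodes were more frequent in the large clonotypes than in those seen in 1 barcode, at 9.52% against 4.82%, 11.9% against 1.02%, 27.5% against 11.6% and 4.36% against 1.19%. Without them the Ifng ratios were 2.84, 12.1, 9.61 and 5.58, and the Csf1 ratios 5.83, 20.5, 18.2 and 21.3.

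**Figure D3:**
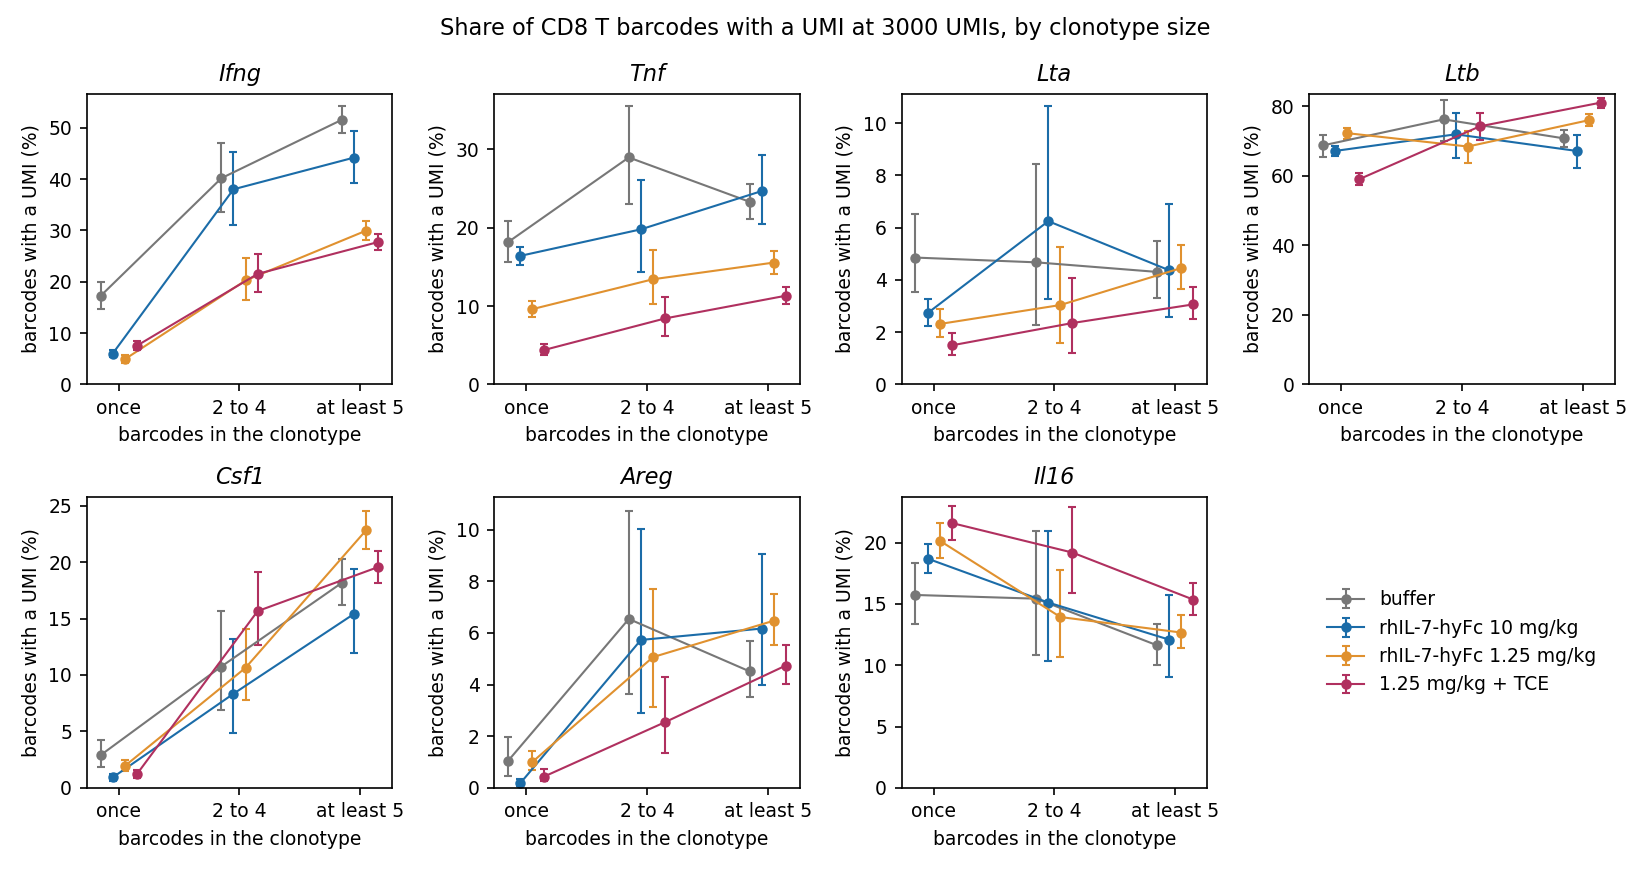
Share of thinned CD8 T barcodes with a UMI of each member (%, 1 panel per gene) in clonotypes seen in 1 barcode, in 2 to 4 and in at least 5, with exact binomial 95% intervals and 1 line per library. Ifng climbs from 17.2% to 51.6% with buffer and from 5.98% to 44.2% at 10 mg/kg, while Il16 goes from 18.7% to 12.1% at 10 mg/kg.

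The PD-1 gene Pdcd1, which is induced by TCR stimulation and kept high in exhausted cells, divided the thinned barcodes into positive (at least 1 UMI) and negative (0 UMIs). Positive barcodes were 56.1% with buffer, 12.9% at 10 mg/kg, 47.5% at 1.25 mg/kg and 54.9% with TCE. Ifng was found in 46.5% of Pdcd1-positive and 23.9% of Pdcd1-negative barcodes with buffer, and in 38.8% and 6.42% at 10 mg/kg. In experiment 2 the shares were 27.3% and 9.0% at 1.25 mg/kg and 24.8% and 9.61% with TCE. The ratio of Ifng CPM was 2.37 (2.27 to 2.47), 5.55 (5.28 to 5.84), 2.35 (2.26 to 2.44) and 3.50 (3.33 to 3.68) in the 4 libraries. A negative barcode at this depth can still express Pdcd1, so the classes describe detection.

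Csf1 was also higher in the Pdcd1-positive barcodes of every library, with CPM ratios of 2.67, 12.1, 2.90 and 4.36 and shares of 16.9% and 4.86%, 10.9% and 1.14%, 19.8% and 4.58%, and 16.9% and 3.02%. Areg had ratios of 5.34, 12.0, 1.86 and 3.53. At 10 mg/kg the Csf1 share of Pdcd1-negative barcodes lay under the 3.18% that 0 of 114 myeloid barcodes allows. With TCE it lay below their 3.41%. For Areg the Pdcd1-negative share was 1.94%, 0.465%, 3.22% and 1.14%. That was above the 1.47% of the myeloid barcodes with buffer and below their 1.75%, 4.92% and 2.27% otherwise. With buffer the myeloid intervals reached up to 12.4% for Csf1 and 7.92% for Areg, above both Pdcd1-negative shares. These ratios, other than that of Csf1 at 1.25 mg/kg, are against a class at background or not set apart from it. Lta was moderately higher in Pdcd1-positive barcodes (1.26, 1.77, 1.57 and 1.91). Its Pdcd1-negative share was 3.75%, 2.89%, 2.48% and 1.44%, within the myeloid intervals except at 1.25 mg/kg. Ltb was higher in 3 libraries (1.32, 1.17 and 1.5) and level at 10 mg/kg (1.00, 0.972 to 1.03). Il16 was lower at 10 mg/kg (0.604), 1.25 mg/kg (0.767) and with TCE (0.791), and with buffer its interval held 1 (0.954, 0.864 to 1.05). Tnf was lower in Pdcd1-positive barcodes with buffer (0.860) and higher elsewhere (1.39, 1.08 and 1.96). Myeloid-rich barcodes were 9.88% of positive and 17.9% of negative barcodes with buffer, and 42.0% and 29.2% at 1.25 mg/kg. Without them the buffer ratio of Tnf was 1.02 (0.945 to 1.10), the Csf1 ratio at 1.25 mg/kg 7.15 and the Areg ratio there 5.16.

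Clone size and Pdcd1 state overlap, so both were crossed. Among Pdcd1-negative barcodes the Ifng share was still higher in clonotypes of at least 5 than in those seen in 1 barcode, at 49.8% against 15.5% with buffer, 36.4% against 5.41% at 10 mg/kg, 27.8% against 3.78% at 1.25 mg/kg and 26.8% against 5.99% with TCE. Among Pdcd1-positive barcodes it was 52.0% against 22.4%, 46.2% against 21.1%, 30.4% against 15.7% and 27.9% against 14.5%. In large clonotypes the Ifng share thus had overlapping intervals in the Pdcd1 states of every library, for example 43.9% to 55.8% and 49.1% to 54.9% with buffer. The Ifng level of these large clonotypes was higher in Pdcd1-positive than in Pdcd1-negative barcodes with buffer (483 and 367 CPM), at 1.25 mg/kg (241 and 212 CPM) and with TCE (223 and 130.1 CPM), with intervals that did not overlap, and at 10 mg/kg the intervals overlapped (361 and 352 CPM). Csf1 was likewise seen in 14.0% of Pdcd1-negative barcodes of large clonotypes with buffer, 16.9% at 10 mg/kg, 17.9% at 1.25 mg/kg and 16.2% with TCE, against 1.39%, 0.726%, 1.17% and 0.571% of Pdcd1-negative barcodes of clonotypes seen in 1 barcode.

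The treatment ratios were also taken within clone size classes. In experiment 1, among clonotypes seen in 1 barcode, Ifng was 4.84-fold lower at 10 mg/kg (154 to 31.8 CPM). Csf1 was at 12.1 and 3.54 CPM there (3.41-fold) and Areg at 9.59 and 1.06 CPM (9.06-fold), but the shares of both genes in this class were at the background of the myeloid barcodes, and these folds are not read as a change in T cells. Among clonotypes of at least 5 barcodes Ifng was 1.28-fold lower (460 to 359 CPM) and Areg 1.24-fold lower (71.3 to 57.4 CPM). Csf1 had a ratio of 0.945 with an interval holding 1 (0.842 to 1.06), at 70.8 and 67.0 CPM. The large clonotypes of the 10 mg/kg library thus had Csf1 at nearly the buffer level, but they were 395 of 4822 barcodes with a single beta chain there and 1533 of 2657 with buffer. The difference of the whole-library ratios from those of large clonotypes was not tested. In clonotypes of 2 to 4 barcodes Ifng was 1.43-fold higher at 10 mg/kg, in a class where 1 barcode held 960 Ifng UMIs, while the shares were 40.2% and 38.0%.

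In experiment 2 the large clonotypes had slightly lower Ifng with TCE, 213 against 239 CPM (0.889, 0.855 to 0.925), and clonotypes seen in 1 barcode had higher Ifng, 38.5 against 28.0 CPM (1.38, 1.24 to 1.53). Ltb had the opposite pattern, at 745 against 628 CPM in large clonotypes (1.19) and 411 against 512 CPM in those seen in 1 barcode (0.802). Without myeloid-rich barcodes the Ltb ratio in large clonotypes was 0.992 (0.968 to 1.02), and that in clonotypes seen in 1 barcode 0.720 (0.700 to 0.740). Tnf was 2.87-fold lower with TCE in clonotypes seen in 1 barcode (46.5 to 16.2 CPM) and 1.24-fold lower in large ones. Without myeloid-rich barcodes these Tnf ratios were 0.483 and 1.01. Areg was 2.46-fold lower in clonotypes seen in 1 barcode, the class at background, and without myeloid-rich barcodes its interval held 1 (0.809, 0.615 to 1.07). Il16 was higher with TCE in both classes, 1.18-fold in clonotypes seen in 1 barcode and 1.21-fold in large ones. Without myeloid-rich barcodes its ratio was 1.07 with an interval holding 1 (0.993 to 1.15) in the former. In large clonotypes it was then 1.11 (1.001 to 1.22).

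Large clonotypes differed among themselves. With at least 20 barcodes there were 23 clonotypes with buffer, 3 at 10 mg/kg, 41 at 1.25 mg/kg and 42 with TCE. The share of Ifng-positive barcodes per clonotype had a lowest, median and highest value of 36.9%, 52.2% and 73.5% with buffer and of 30.0%, 36.0% and 55.0% at 10 mg/kg. In experiment 2 these were 9.76%, 31.8% and 45.5% at 1.25 mg/kg and 7.89%, 26.8% and 55.6% with TCE. Every clonotype of this size thus contained Ifng-positive barcodes. Csf1 ranged over clonotypes from 4.17% to 47.6% with buffer, 0 to 25.0% at 10 mg/kg (0 of 20 barcodes in 1 of the 3 clonotypes, an interval up to 16.8%), 9.09% to 45.0% at 1.25 mg/kg and 4.17% to 47.1% with TCE.

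Areg was spread unevenly over large clonotypes of the same library. The largest TCE clonotype, with 513 barcodes, had Areg in 1 of 506 thinned barcodes (0.198%, interval 0.01% to 1.10%), with Ifng in 33.2% and Csf1 in 17.6%. Another of 187 barcodes had Areg in 22 of 183 (12.0%, 7.69% to 17.6%) and Ifng in 33.9%. These 2 clonotypes thus had nearly equal Ifng shares and Areg shares whose intervals did not overlap; they were picked after their values were seen, and the difference is a description.

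**Figure D4:**
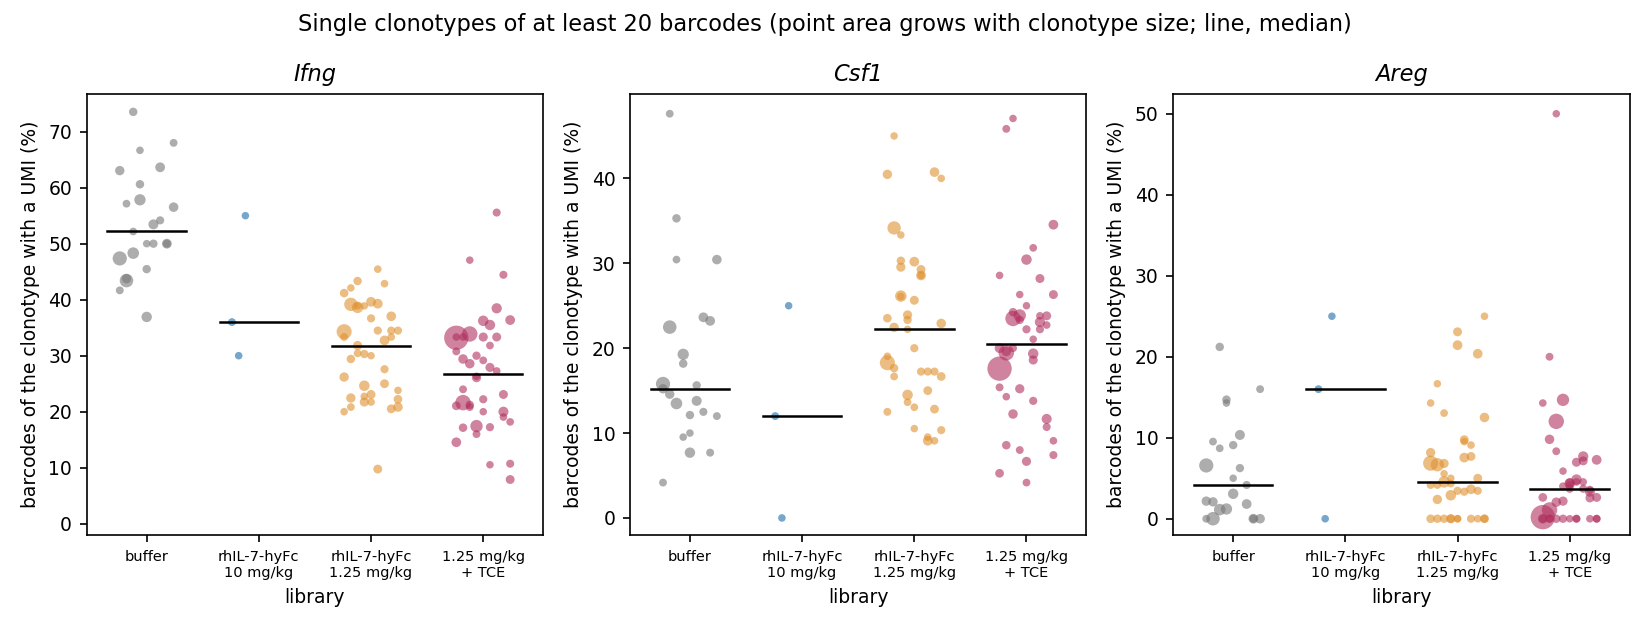
Share of thinned barcodes with an Ifng, Csf1 or Areg UMI (%) in each clonotype of at least 20 barcodes, by library; point area grows with clonotype size and the line is the median. The Ifng medians are 52.2%, 36.0%, 31.8% and 26.8%, and the largest TCE clonotype is near 0 for Areg.

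A few barcodes carried much of the Ifng. Barcodes with at least 50 Ifng UMIs numbered 33 with buffer, 10 at 10 mg/kg, 33 at 1.25 mg/kg and 12 with TCE, yet held 26.1%, 28.8%, 25.2% and 16.8% of all Ifng UMIs. They were deep, with a median of 21749, 21690.5, 14626 and 13546.5 UMIs, and 1, 0, 20 and 4 of them were myeloid-rich. The chemokine gene Ccl4 measured 1670, 8948, 10120 and 18166 CPM in them against 615, 189, 867 and 260 CPM in the other barcodes. The barcode highest for Ifng alone held 212, 1201, 292 and 822 Ccl4 UMIs, and these levels are not given without it. Their Tnf was 96.6, 162, 167 and 1149 CPM against 95.4, 74.7, 55.3 and 31.4 CPM in the other barcodes. With TCE 7 of the 12 barcodes held Tnf and 1 of them held 145 of the 190 Tnf UMIs. Without the barcode highest for Tnf among those with at least 50 Ifng UMIs the 4 values were 85.6, 35.2, 114 and 322 CPM, so at 10 mg/kg the value was then below that of the other barcodes. The single highest barcode held 430, 960, 306 and 428 Ifng UMIs. At 10 mg/kg and with TCE this same barcode held 267 of the 300 and 290 of the 358 UMIs of Il2, the T cell growth factor, found in all CD8 T barcodes of the library, and with buffer and at 1.25 mg/kg it held 0.

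Barcodes with an Ifng UMI also carried Csf1 more often than those without, at 17.4% against 8.31% with buffer, 8.0% against 1.73% at 10 mg/kg, 21.3% against 9.79% at 1.25 mg/kg and 19.4% against 8.73% with TCE. Areg had the same order, at 5.25% against 2.98%, 3.65% against 0.679%, 7.68% against 4.43% and 3.87% against 2.70%. With TCE the Areg intervals overlapped (3.05% to 4.84% and 2.37% to 3.07%). Tnf was at 25.1% against 21.2%, 23.3% against 16.8%, 15.0% against 12.3% and 12.4% against 7.03%. Lta was at 4.91% against 3.99%, 4.17% against 2.88%, 4.88% against 2.72% and 3.34% against 1.97%. Intervals overlapped for both genes with buffer and for Lta at 10 mg/kg. Ltb was higher except at 10 mg/kg (66.1% against 67.8%). Without myeloid-rich barcodes the Ltb intervals overlapped with buffer (71.8% against 70.0%) and at 1.25 mg/kg (78.2% against 76.2%). With TCE they stayed apart (74.5% against 69.8%). Il16 did not have this order in every library, with 13.3% against 13.0% with buffer, 17.2% against 18.4% at 10 mg/kg, 12.3% against 15.3% at 1.25 mg/kg and 16.5% against 18.5% with TCE.

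The genes around these cytokines were described from 8 lists, by the same 1.5-fold count. In experiment 1 these counts stand beside 21.4% lower and 6.33% higher over all genes, or 20.2% and 7.01% without myeloid-rich barcodes. The list of inducers and transcription factors had 1 of 28 measured genes higher and 8 lower at 10 mg/kg (median log2 ratio -0.26), and 1 and 6 of 27 without myeloid-rich barcodes (median -0.30). Eomes, a T-box activator of Ifng, was higher (17.0 to 59.7 CPM), and the interferon regulatory factors Irf8 (699 to 210 CPM) and Irf4 (18.7 to 7.18 CPM) were lower. The list of mRNA decay and translation regulators includes proteins that destabilise cytokine messages, and also the NF-κB pathway genes Nfkbia, Nfkbiz and Tnfaip3. Of its 12 genes 1 was higher and 0 lower (median -0.08), the higher gene being Zfp36l2 (338 to 554 CPM). Of 6 genes listed under processing and release 3 were lower and 0 higher (median -0.56). Among them were Rhbdf2 (16.5 to 9.91 CPM), a partner of the protease that sheds TNF, and Spn (117 to 74.8 CPM). Of 18 interferon-γ targets 8 were higher and 1 lower (median 0.34), and 8 and 0 of 17 without myeloid-rich barcodes (median 0.42), with the GTPase genes Igtp (140.4 to 307 CPM), Gbp2 (91.2 to 199 CPM) and Iigp1 (16.8 to 34.0 CPM) higher while Ifng itself was lower; these genes also respond to type I interferons.

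Of 8 other T cell cytokines in experiment 1, 5 were lower and 0 higher (median -1.0), and 4 and 1 of 9 without myeloid-rich barcodes (median -0.46), with Ccl3 from 208 to 43.1 CPM, Ebi3 from 11.7 to 2.42 CPM and Ccl4 from 635 to 227 CPM. Of 9 TNF superfamily ligands 5 were lower and 1 higher (median -0.75), with the costimulatory ligand genes Tnfsf9 (19.9 to 5.07 CPM), Cd70 (5.81 to 0.900 CPM) and Tnfsf4 (5.61 to 1.18 CPM) lower. Of 11 TNF and lymphotoxin targets 1 was higher and 2 lower (median -0.08), with the neutrophil chemokine gene Cxcl1 from 10.9 to 0.196 CPM, Nfkb2 from 99.8 to 63.8 CPM and Bcl3 from 30.1 to 50.6 CPM. Of 6 receptor genes 2 were lower and 0 higher (median 0.08), namely Csf1r (18.6 to 5.19 CPM) and Ltbr (6.03 to 1.59 CPM). Csf1r is the defining receptor gene of macrophages. Without myeloid-rich barcodes Csf1r was 2.33 and 0.328 CPM, and the list then had 2 of 4 genes higher and 0 lower.

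In experiment 2 several of these counts differed without the myeloid-rich barcodes, and they stand beside 9.01% lower and 2.54% higher over all genes, or 2.7% and 1.62% without those barcodes. With TCE 3 of 28 inducers were lower and 0 higher (median -0.02), namely the immediate-early genes Fos (536 to 145 CPM), Egr2 (18.8 to 4.08 CPM) and Jun (176 to 83.3 CPM), and without those barcodes 1 of 27 was lower. In the list of mRNA decay and translation regulators 2 of 12 genes were lower (median -0.05). These were Zfp36 (522 to 222 CPM), which encodes the Tnf mRNA-binding protein tristetraprolin, and the NF-κB pathway gene Nfkbiz (57.5 to 33.6 CPM). Without myeloid-rich barcodes Zfp36 was 188 and 158 CPM, while Nfkbiz was 56.3 and 32.2 CPM and the 1 gene of the list past the threshold. Of 18 interferon-γ targets 5 were lower and 0 higher (median -0.28), led by the chemokine genes Cxcl9 (60.5 to 14.2 CPM) and Cxcl10 (308 to 101 CPM). Without myeloid-rich barcodes 2 of 17 were lower, namely Cxcl10 (119 and 57.5 CPM) and Iigp1 (17.9 and 11.4 CPM). Cxcl9 was then under the 5 CPM needed to count as measured, at 2.19 and 0.399 CPM.

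Of 9 other cytokines 2 were higher and 5 lower with TCE (median -0.82), and 2 and 2 of 7 without myeloid-rich barcodes. Ccl4 went from 909 to 292 CPM, and from 334 to 203 CPM without those barcodes. Of 8 TNF superfamily ligands 4 were lower and 0 higher (median -0.36), among them Tnfsf9 (28.0 to 14.8 CPM) and Tnfsf8 (18.1 to 11.1 CPM), and 1 of 7 without myeloid-rich barcodes, where Tnfsf8 was 24.3 and 11.7 CPM. Of 7 receptor genes 4 were lower and 0 higher (median -1.19), with Csf1r from 57.1 to 11.4 CPM and Ifngr2 from 45.5 to 14.9 CPM. Without myeloid-rich barcodes 2 of 4 were lower (median -0.46), and Csf1r was 0.802 and 0.133 CPM. Of 11 TNF and lymphotoxin targets 1 was lower and 0 higher (median -0.10), namely Tnfaip2 (12.5 to 3.61 CPM), and without myeloid-rich barcodes 0 of 10 were past the threshold and Tnfaip2 was 0.737 and 0.399 CPM. Of 6 genes listed under processing and release 0 were past the threshold (median 0.16), with Rhbdf2 at 18.9 and 14.3 CPM. Without myeloid-rich barcodes 1 of 6 was higher (median 0.13).

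Across 24 classes of library, Pdcd1 state and clone size, each with at least 50 barcodes, the pattern of each member was compared with that of 5065 genes after subtracting the library mean. The classes of a library share its depth and free RNA, so the Pearson correlations are a description. Ifng was most like Dusp14 (0.93), Tbx21 (0.92) and Fam20a (0.92), where Tbx21 encodes the transcription factor T-bet. Csf1 was most like Matk (0.97), Chst12 (0.97) and the granzyme gene Gzme (0.96), and Areg most like Sms (0.93), Stat3 (0.92) and Chst12 (0.92). Tnf was most like Klf6, Casp1 (both 0.78) and B2m (0.77), and Lta most like Cers4 (0.83), Rnf13 and Apobec3 (both 0.76). Ltb was most like Cd82 (0.89), Pfdn5 (0.85) and H2-K1 (0.80), and Il16 most like Slc11a2 (0.93), Dnajc15 and Gtf2i (both 0.91). Between members the correlation was 0.88 for Ifng and Areg, 0.87 for Csf1 and Areg, 0.81 for Ifng and Csf1 and, for the neighbouring genes, 0.71 for Tnf and Ltb and 0.29 for Tnf and Lta, and Il16 was negatively correlated with each of the others.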

How the data were processed

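Single-cell 5′ RNA and TCR libraries of CD8 T cells from mouse tumours were analysed, 1 of each per group. Expression was deposited as matrices of unnormalised UMI counts, for which the file headers name Cell Ranger 4.0.0 in experiment 1 and 6.1.2 in experiment 2 and the submitters' processing notes name GRCm38. The authors' TCR tables give UMI counts per assembled contig; the sources used here do not say how barcodes were kept upstream. Nothing in the labels says whether a library pooled animals.

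Barcodes with at least 500 genes and under 10% mitochondrial UMIs that passed the Cd8 and Cd3 requirement were kept. No doublet caller was run; barcodes with more than 1 productive beta chain (5.43%, 8.56%, 5.76% and 7.18%) were left out as an alternative. CPM were UMIs of a gene per 1000000 UMIs, summed over these barcodes, with exact Poisson intervals, conditional binomial intervals for ratios and Clopper-Pearson intervals for shares, all at 95%. UMIs without replicates give counting error only. Log2 ratios used CPM + 1. Genes with at least 5 CPM in either library counted as measured, and 1.5-fold as different. Shares were taken after thinning to 3000 UMIs (seed 7). A share of 0 is given with its Clopper-Pearson upper bound. A clonotype is a nucleotide CDR3 with its V and J genes, for barcodes with 1 productive beta chain. Background came from barcodes with at least 10 myeloid UMIs and 0 UMIs of Cd3d, Cd3e, Cd3g, Cd8a and Cd8b1.

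The members and lists were chosen with earlier results of these data known. Named genes were the members with Pdcd1 and Mki67, the 3 members of each list with the largest absolute log2 ratio (not all are printed, and 1 is not reported here), and the 3 genes most like each member among those with at least 20 CPM; chemokine and Il2 values in Ifng-rich barcodes were chosen after they were seen. Alternatives changed the barcode requirements, myeloid, cycling and doublet filters, clone weighting, scaling (TMM of edgeR 4.0.16, R 4.3.3), thresholds and class definitions. Python 3.11.15 with numpy 2.4.6, scipy 1.17.1, pandas 2.3.3 and matplotlib 3.10.9 was used, and the ratio and interval code was tested on simulated data.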

Additional observations from a re-analysis of the deposited data

Results flagged for a closer look

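The following treatment ratios (treated over reference CPM) lay on opposite sides of 1 in 2 classes of barcodes, each with an interval that left out 1. With 1 library per group the difference between the classes was not tested.

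In experiment 2 Ifng had a ratio of 0.889 in clonotypes of at least 5 barcodes and 1.38 in clonotypes seen in 1 barcode. The directions were the same without myeloid-rich barcodes (0.829 and 1.43) and without the barcode highest for Ifng in each library (0.855 and 1.42). Ltb had ratios of 1.19 and 0.802 in these classes. Without myeloid-rich barcodes they were 0.992 (0.968 to 1.02) and 0.720, so the value in large clonotypes no longer lay above 1.

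By Pdcd1 state Ltb had a ratio of 1.14 in positive and 0.891 in negative barcodes of experiment 2, and of 0.833 and 1.10 in experiment 1. Without myeloid-rich barcodes all 4 were below 1, at 0.962, 0.744, 0.799 and 0.963. Tnf in experiment 1 had a ratio of 1.12 in Pdcd1-positive and 0.693 in Pdcd1-negative barcodes, and of 1.16 and 0.816 without myeloid-rich barcodes.

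Lta in experiment 1 had a ratio of 1.58 in clonotypes of at least 5 barcodes and 0.404 in those seen in 1 barcode. The Lta shares of the latter class, 4.86% with buffer and 2.72% at 10 mg/kg, lay within the myeloid intervals. A single barcode at 10 mg/kg held 38 Lta UMIs, and without the highest barcode of each library the ratio in large clonotypes was 1.23 with an interval holding 1 (0.986 to 1.52).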

How the results depend on the processing

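No paired analysis was possible because each group has 1 library. None of the alternatives below turned a member counted as different to the other side of 1; the sign differed in 7 of 154 treatment ratios, 2 of 56 ratios by Pdcd1 state and 2 of 84 by clone size, and 8 of these 11 concern Ltb. Values are log2 ratios, and the cause of each shift was not tested.

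The reported treatment ratios of Ifng, Tnf and Csf1 were -1.75, -0.34 and -1.88 in experiment 1 and -0.22, -0.72 and -0.21 in experiment 2. TMM scaling, which adds 0.27 in experiment 1 and -0.06 in experiment 2, gave -1.48, -0.073 and -1.62, and -0.28, -0.79 and -0.27. Leaving out barcodes with 3 or more myeloid UMIs gave -1.59, -0.57 and -2.63, and -0.41 and -0.29 for Ifng and Tnf in experiment 2. Leaving out those with 20 or more, chosen after seeing the data, gave -1.85, -0.25 and -2.06, and -0.32, -0.36 and -0.29. Leaving out barcodes with a Mki67 or Top2a UMI gave -1.81, -0.54 and -2.36, and -0.076 for Csf1 in experiment 2. A mean over barcodes gave -1.86, -0.64 and -2.45, and -0.28, -0.60 and -0.13. Counting each clonotype once gave Ifng -2.05 in experiment 1, and 0.21, -1.0 and 0.0054 in experiment 2. At least 2 UMIs in each requirement gave Ifng -1.84, and leaving out its highest barcode -1.94, both in experiment 1. Ifng UMIs per positive barcode moved from 2.41 to 1.90 at 10 mg/kg and from 1.95 to 1.86 with TCE without that library's barcode highest for Ifng.

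The 1 member higher in experiment 1 became 0 under the 2-fold threshold, both myeloid filters, the cycling filter, the mean over barcodes and each clonotype counted once. The 2 lower in experiment 2 became 1 under both myeloid filters and with each clonotype counted once, and 0 at 2-fold. Over all genes, 2.77% were at least 2-fold higher in experiment 1 (10.3% lower) and 5.84% at least 2-fold lower in experiment 2 (0.376% higher).

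For Ifng by Pdcd1 state, leaving out barcodes with 20 or more myeloid UMIs gave 1.05 with buffer, 1.70 at 1.25 mg/kg and 1.94 with TCE (reported 1.24, 1.22 and 1.79). Requiring 2 Pdcd1 UMIs gave 2.55 at 10 mg/kg and 1.92 with TCE (reported 2.45 and 1.79). For Ifng by clone size the same myeloid filter gave 3.56 at 10 mg/kg and 3.22 at 1.25 mg/kg, classes of at least 10 barcodes gave 3.20 at 10 mg/kg, and Cell Ranger's clonotypes gave 2.82 at 1.25 mg/kg (reported 3.45 and 3.05). Of 112 shares recomputed at another depth, threshold or myeloid filter, 76 left the reported interval.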
